A study of Homo sapiens with 12 samples.

Results

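The 44 genes described here encode the machinery that copies DNA in S phase, and they were taken from the count table by gene symbol. Each symbol was found once among the 57500 genes of the table, and all 44 passed the filter on low counts in both comparisons. They fall into 7 roles. Replication licensing has 11 genes (MCM2 to MCM7, ORC1, ORC6, CDC6, CDT1 and GMNN), and helicase activation has 6 (MCM10, CDC45 and GINS1 to GINS4). The DNA polymerases and primase number 9 (POLA1, POLA2, PRIM1, PRIM2, POLD1, POLD2, POLD3, POLE and POLE2), and the sliding clamp, clamp loader and single-strand binding protein number 8 (PCNA, RFC2 to RFC5 and RPA1 to RPA3). Flap removal and ligation has 2 genes (FEN1 and LIG1), nucleotide supply has 4 (RRM1, RRM2, TYMS and TK1), and entry into S phase with turnover of CDT1 has 4 (CCNE1, CCNE2, E2F1 and DTL).

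Total RNA from 3 established human cancer cell lines was sequenced after removal of ribosomal RNA, with 12 libraries in 4 groups of 3 biological replicates. SW480 came from a primary colorectal cancer and SW620 from a metastasis of the same patient, and both were grown untreated in DMEM with serum. PEO4, an ovarian cancer line, was grown in RPMI 1640 with serum, as a control or with recombinant human TGF-β, a cytokine that halts the cycle of many epithelial cells, at 10 ng/mL for 6 days. The design compares SW620 with SW480, and treated with control PEO4. Each condition rests on 1 cell line, so a difference between SW480 and SW620 is one between these 2 lines, and the labels do not give culture density or growth rate.

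Before S phase, the origin recognition complex, CDC6 and CDT1 load the MCM2-7 ring onto DNA, and geminin (GMNN) binds CDT1 and blocks further loading. CDC45, the GINS complex and MCM10 then turn the ring into a moving helicase, primase and the polymerases copy both strands, and PCNA holds the polymerases on DNA. Many of these genes are transcribed in late G1, when cyclin-dependent kinases inactivate the retinoblastoma protein and release E2F factors. In RNA from whole cultures, a smaller share of cells in S phase and less RNA of these genes per cell cannot be told apart.

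The promoters are shown first because E2F factors are known to control this group. RefSeq promoter entries (GRCh38.p14, from 250 bases before to 50 bases after the start site) were found for 37 of the 44 genes. MCM4, MCM5, GINS4, POLD3, RPA2, RPA3 and CCNE2 had none in the table used. An E2F site was searched on both strands as the letters TTTCCCGC, TTTCGCGC, TTTGCCGC or TTTGGCGC. Of the 37 promoters 19 (51.4%) held at least 1 of them, against 3.31% of all 35116 promoters of the same length and 4.94% of the 11854 promoters of genes tested in the SW comparison. In 16 of the 19, a match began between 60 bases before and 10 bases after the start site. The letters CCAAT, searched on both strands, were in 21 of 37 (56.8%) against 34.6% of all promoters. The letters TTTGAA, known from promoters of mitotic genes, were in 1 of 37 (2.7%, RRM1) against 15.2% of all promoters. Among promoters of genes tested in the SW comparison, the shares were 36.1% for CCAAT and 9.94% for TTTGAA. A match is a stretch of letters and not a measured binding site, and a promoter without one lacks only these letters in this window.

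The promoters printed are those of the 3 genes with the smallest p in the comparison of the SW lines, and of MCM6, chosen after the matches were seen because it held the most. Each runs 5′ to 3′ on the gene's strand, from 160 bases before the start site through the first 25 transcribed bases, and the E2F letters are in capitals. E2F1 is on the minus strand at chr20:33686361-33686545, CDC6 on the plus strand at chr17:40287719-40287903, CCNE1 on the plus strand at chr19:29811831-29812015, and MCM6 on the minus strand at chr2:135876419-135876603, all in GRCh38.p14.
E2F1: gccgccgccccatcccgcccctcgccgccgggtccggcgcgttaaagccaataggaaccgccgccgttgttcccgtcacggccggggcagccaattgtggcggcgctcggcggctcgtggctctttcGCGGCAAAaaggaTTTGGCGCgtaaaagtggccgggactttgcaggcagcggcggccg
CDC6: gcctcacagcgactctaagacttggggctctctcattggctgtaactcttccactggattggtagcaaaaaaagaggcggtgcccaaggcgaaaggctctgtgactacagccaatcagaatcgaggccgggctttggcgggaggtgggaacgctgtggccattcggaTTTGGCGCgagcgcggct
CCNE1: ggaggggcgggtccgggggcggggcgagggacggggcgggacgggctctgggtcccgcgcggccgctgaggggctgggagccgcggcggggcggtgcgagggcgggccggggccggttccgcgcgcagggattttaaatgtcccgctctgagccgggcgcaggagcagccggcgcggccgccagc
MCM6: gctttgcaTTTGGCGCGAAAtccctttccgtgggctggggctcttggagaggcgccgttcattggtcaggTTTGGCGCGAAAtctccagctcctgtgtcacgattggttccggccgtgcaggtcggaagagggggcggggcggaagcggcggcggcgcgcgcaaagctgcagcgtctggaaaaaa

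E2F1 has a pair of matches that begin 33 and 20 bases before its start site, on opposite strands. CDC6 has 1 match, which begins 7 bases after the start. The 4 matches of MCM6 are 2 pairs of overlapping matches on opposite strands, so its capitals show 2 runs, which begin 152 and 90 bases before the start. CCNE1 has no match in this window.

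**Figure D1:**
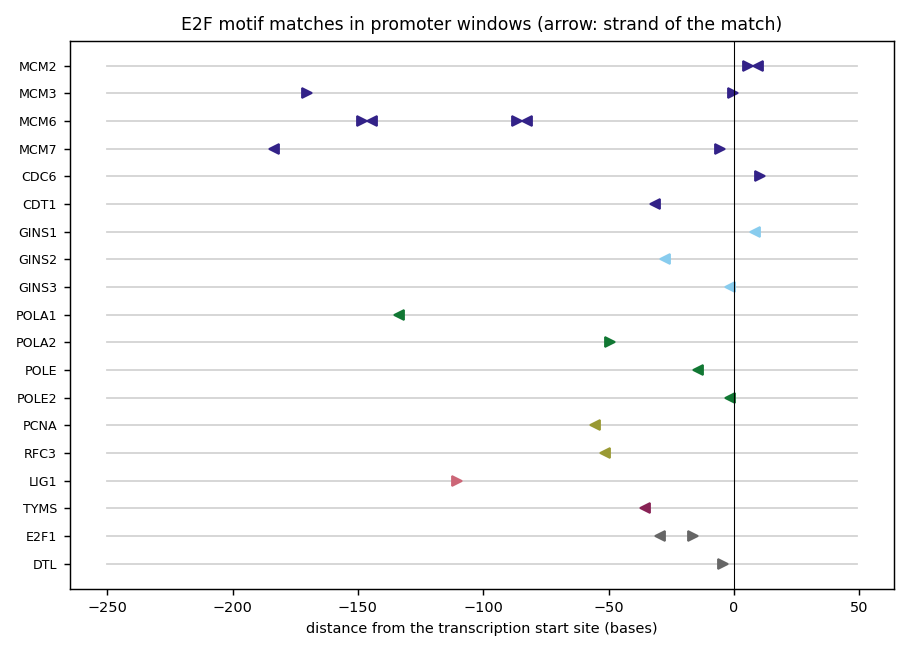
Positions of E2F letters in the promoters that hold them, 1 line per gene, with the distance of each match's first base from the RefSeq start site (bases, negative before the start) on the horizontal axis. In 16 of 19 promoters a match begins from 60 bases before to 10 bases after the start.

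The 12 libraries held 14531420 to 22028956 gene counts. CDX2, a colorectal transcription factor, had at least 292 counts in every SW library and at most 3 in every PEO4 library, but KRT20, another colorectal marker, was at 24 counts or fewer throughout. MUC16, an ovarian marker, had at least 33559 counts in every PEO4 library, 638 to 924 in SW480, and 49, 5 and 758 in SW620 replicates 1 to 3. The fibroblast marker DCN stayed at 18 counts or fewer and the leukocyte marker PTPRC at 108 or fewer (4, 50 and 108 in SW620, at most 1 in SW480). Replicate 2 of both SW lines stood apart for the replication genes. In SW480 replicate 2, 41 of 44 were below the mean of the other libraries of the line, by a median of -0.50 on the log2 scale, while the median over all genes was 0.02. In SW620 replicate 2, 37 of 44 were below, by a median of -0.28, against -0.02 over all genes. These 2 libraries also had the lowest totals (14712953 and 14531420 counts) and the highest mitochondrial shares of their lines (14.3% and 12.8%), and genes with merged exons of 2389 bases or fewer were higher in them (median log2 difference 0.38 and 0.41). Their part in the results was not tested, and counts of genes are given with and without these libraries.

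In SW620, 6 of the 44 genes were lower than in SW480 and none was higher. They were the licensing factor CDC6, cyclin E1 (CCNE1), the small subunit of ribonucleotide reductase (RRM2), the clamp loader subunit RFC3, the transcription factor E2F1 and DNA ligase 1 (LIG1), with log2 fold changes from -1.10 to -0.68. The other 38 did not pass in this fit, which used no replicate block, among them all 6 MCM ring subunits, all 9 polymerase and primase subunits, and PCNA. A gene passed with a Benjamini-Hochberg adjusted p under 0.05 in edgeR's quasi-likelihood test over all 20941 genes tested. The 6 lower genes are 13.6% of the group, where 17.0% of all tested genes were lower. None of the 44 was higher, against 13.5% of all tested genes. The share lower is thus near that of all genes. At an unadjusted p under 0.05 in the same test, 14 of the 44 differed (3 higher, 11 lower), against 40.7% of all tested genes. The median log2 fold change of the 44 was -0.12, beside 0.03 over all tested genes, and 28 of the 44 values were negative. Of the 6 lower genes 4 had E2F letters in the promoter (E2F1, CDC6, RFC3 and LIG1), and of the other 31 with an entry 15 had.

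**Figure D2:**
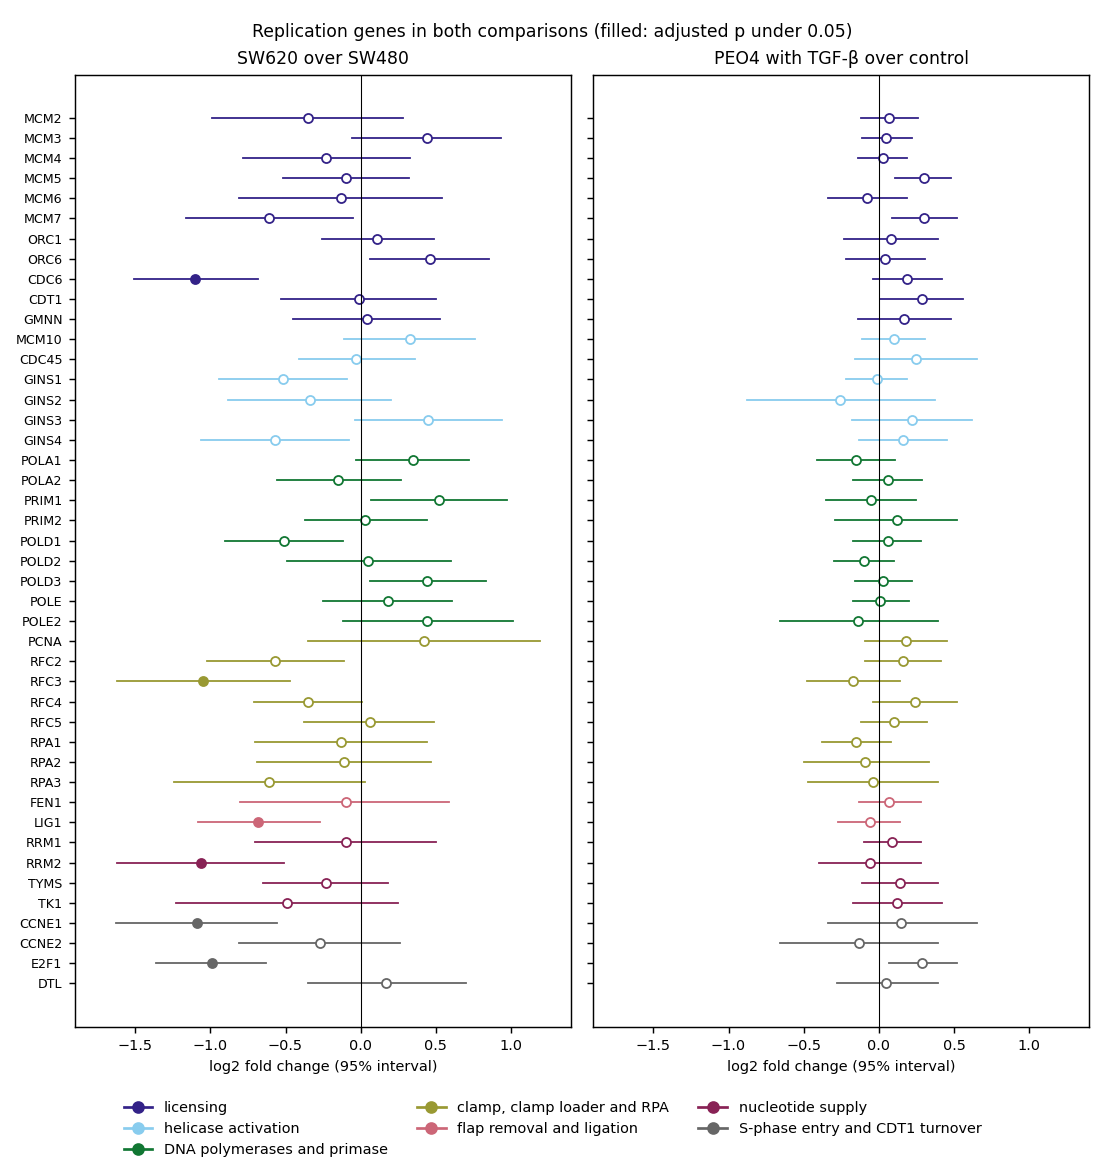
Log2 fold change of each of the 44 genes with its 95% interval derived from edgeR's test, grouped by role, for SW620 over SW480 and for PEO4 with TGF-β over control. In the SW panel the values run from -1.10 to 0.52, and in the PEO4 panel from -0.26 to 0.30.

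Among the genes of S-phase entry, E2F1 encodes the factor that activates many of the other genes. Its scaled CPM (counts scaled to the library total, with edgeR's TMM factors) was 89.6, 74.0 and 85.5 in SW480 replicates 1 to 3, and 36.4, 43.5 and 45.3 in SW620. All 3 SW620 libraries were below all SW480 libraries, and the log2 fold change was -0.99 ± 0.16 (SE, edgeR adjusted p = 0.00162). CCNE1 encodes the cyclin that drives CDK2 into S phase. Its CPM was 9.71, 7.80 and 8.38 in SW480 and 4.19, 3.70 and 4.23 in SW620, with no overlap, at a log2 fold change of -1.09 ± 0.24 (SE, edgeR adjusted p = 0.00712). It was a low-count gene, with 61 to 82 counts per SW620 library. CCNE2, the second E-type cyclin, overlapped between the lines (8.73 ± 1.80 CPM in SW480 and 7.22 ± 0.609 in SW620, SD, n = 3). DTL, the adaptor that targets CDT1 for destruction during S phase, had 43.9 ± 10.6 CPM in SW480 and 49.5 ± 10.3 in SW620 (SD, n = 3) and did not pass.

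CDC6 was the 1 licensing gene of 11 that passed, and it had the lowest log2 fold change of all 44. Its CPM was 122, 81.0 and 104 in SW480 and 50.5, 45.4 and 47.8 in SW620. The lines did not overlap, and the log2 fold change was -1.10 ± 0.18 (SE, edgeR adjusted p = 0.00185). CDT1, its partner in loading, was at 59.4 ± 11.3 CPM in SW480 and 58.8 ± 15.9 in SW620, and geminin at 23.8 ± 4.78 and 24.4 ± 4.97 (SD, n = 3). The origin subunits also did not pass: ORC1 had a log2 fold change of 0.11 ± 0.17 and ORC6 one of 0.46 ± 0.18 (SE).

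The values of the MCM ring subunits lay on both sides of 0, and none passed. MCM7 had the lowest log2 fold change of the 6, at -0.61 ± 0.24 (SE, edgeR adjusted p = 0.0946), from 595, 392 and 587 CPM in SW480 to 341, 268 and 426 in SW620. MCM3 had the highest, at 0.44 ± 0.22 (edgeR adjusted p = 0.168), from 222, 150 and 217 CPM to 263, 221 and 314. Both overlapped between the lines, and the other 4 subunits lay between -0.35 (MCM2) and -0.10 (MCM5). Of the helicase activation genes none of 6 passed. GINS1 and GINS4 were lower without overlap at log2 fold changes of -0.52 and -0.57 (edgeR adjusted p = 0.068 and 0.0792), while GINS3 and MCM10 had values of 0.45 and 0.33.

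None of the 9 polymerase and primase genes passed, and 7 of their 9 values were positive, with a median of 0.18. POLD1, the catalytic subunit of polymerase delta, was closest to the threshold. Its CPM was 106, 98.5 and 107 in SW480 and 64.0, 67.0 and 87.9 in SW620, with no overlap, and its log2 fold change was -0.51 ± 0.17 (SE, edgeR adjusted p = 0.0505). PRIM1, the catalytic primase subunit, was at 35.1, 23.9 and 30.2 CPM in SW480 and 49.1, 34.7 and 43.9 in SW620. These values overlapped, at a log2 fold change of 0.52 ± 0.20 (SE, edgeR adjusted p = 0.0799), the highest of the 44. POLD3 and POLA1 were higher in all SW620 libraries than in any SW480 library, at log2 fold changes of 0.44 ± 0.17 and 0.35 ± 0.16 (SE), and did not pass.

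RFC3, which helps to load PCNA, was at 62.0, 37.2 and 51.4 CPM in SW480 and 30.3, 17.1 and 25.5 in SW620. The groups did not overlap, and the log2 fold change was -1.05 ± 0.25 (SE, edgeR adjusted p = 0.0131). The other loader subunits RFC2, RFC4 and RFC5 had log2 fold changes of -0.57, -0.35 and 0.06 and did not pass. PCNA itself was at 194, 93.8 and 184 CPM in SW480 and 227, 127 and 276 in SW620. Its log2 fold change of 0.42 had the largest standard error of the 44 (0.34), and the number 2 library was the lowest of each line. RPA1, RPA2 and RPA3, which coat single-stranded DNA, had log2 fold changes of -0.13, -0.11 and -0.61 and did not pass.

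LIG1, which seals Okazaki fragments, was at 70.9, 69.0 and 62.3 CPM in SW480 and 35.0, 51.4 and 40.2 in SW620, with no overlap, at a log2 fold change of -0.68 ± 0.18 (SE, edgeR adjusted p = 0.0186). FEN1, the nuclease that acts just before it, was at 81.8 ± 26.3 CPM and 76.0 ± 25.4 (SD, n = 3) and did not pass. RRM2, the regulated subunit of the enzyme that makes deoxyribonucleotides, was at 258, 141 and 206 CPM in SW480 and 106, 77.9 and 105 in SW620. The log2 fold change was -1.06 ± 0.24 (SE, edgeR adjusted p = 0.00975), again without overlap. Its partner RRM1 was at 134 ± 37.1 and 125 ± 32.1 CPM (SD, n = 3). TYMS and TK1, which supply thymidylate, had log2 fold changes of -0.23 and -0.49 and did not pass. Of RRM2's exon bases 20.23% are shared with AC007240.1 on the same strand, so its count is uncertain.

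**Figure D3:**
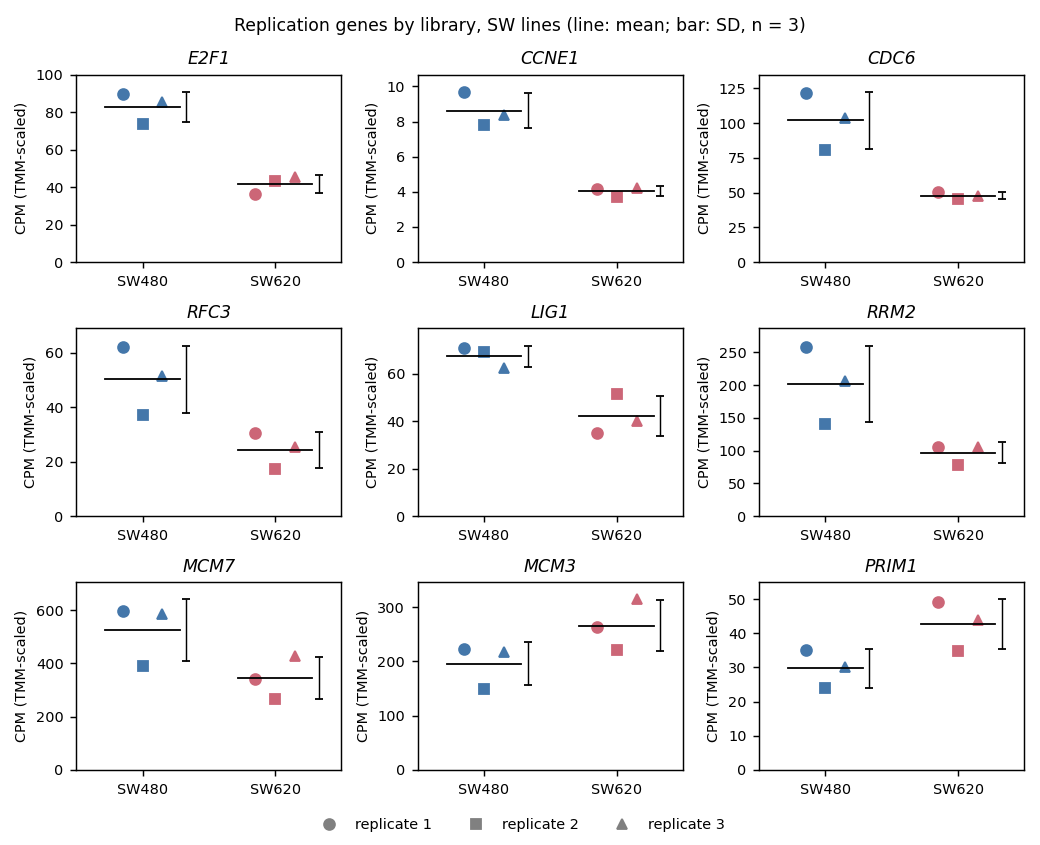
Scaled CPM of 9 replication genes in each SW480 and SW620 library, with a line at the group mean and a bar for the SD (n = 3), and marker shapes for the replicate numbers. E2F1, CCNE1, CDC6, RFC3, LIG1 and RRM2 do not overlap between the lines, and MCM7, MCM3 and PRIM1 do.

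How many genes passed depended on the libraries and the model used. For these other fits the share of all tested genes that passed is not given. Their counts are therefore not set against a background and are no result about the group. With the replicate number as a block, 9 were higher (GINS3, MCM3, MCM10, ORC6, PCNA, POLA1, POLD3, POLE2 and PRIM1) and 15 lower, the original 6 among them with MCM2, MCM7, GINS1, GINS4, POLD1, RFC2, RFC4, RPA3 and TK1. The labels do not say that a number marks a shared culture or day. Without SW480 replicate 1 only CDC6 and E2F1 of the 6 still passed (2 lower), and the edgeR adjusted p became 0.0629 for CCNE1, 0.0664 for RRM2, 0.0824 for RFC3 and 0.0976 for LIG1. Without SW480 replicate 2 there were 10 lower, and without SW620 replicate 2 there were 4 higher (GINS3, MCM3, POLD3 and PRIM1) and 6 lower. SW620 replicate 3 left out gave 1 higher (ORC6) and 9 lower, the original 6 among them. With replicate 2 of both lines left out, a choice made after seeing the data, 12 were lower, the original 6 among them, and 1 (PRIM1) was higher. Without SW620 replicate 1, LIG1 did not pass (edgeR adjusted p = 0.117). CDC6 and E2F1 passed in all 16 alternatives run, and CCNE1, RRM2 and RFC3 in 15. Between the lines, the replicate values of 3 genes did not overlap with SW620 higher, against 20.8% of all tested genes, and of 10 with SW620 lower, against 23.4%.

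The authors' deposited table, made with DESeq2 per the submitters' processing notes, lists 8 of the 44 as lower in SW620 at an adjusted p under 0.05 and none as higher. Over all genes with an adjusted p in that table, 18.2% were lower and 16.0% higher. The 8 are the 6 above with POLD1 (0.028) and MCM7 (0.05 after rounding). The mean CPM of the 44 in SW480 ran from 8.63 to 525. The 95% intervals of 31 of the 44 lay within a 2-fold change in either direction, and those of 8 within 1.5-fold. PCNA's reached up to 1.19 on the log2 scale and CCNE1's down to -1.63.

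Partners in the same enzyme, complex or step were set against each other. Levels were compared as TPM, which divides counts by merged exon length, and 10 ratios were taken within each library after the values had been seen, so they carry no test. In 7 of the 10 the ratios did not overlap between the SW lines. RRM2, RFC3, LIG1, CDC6 and CCNE1, already called lower, were set over partners that were not, so this count was partly built in. No share over ratios of other gene pairs was taken beside it, and it is no result about the group. The shares of single genes, 20.8% without overlap with SW620 higher and 23.4% with SW620 lower, are in CPM. They are another measure and give no background for ratios. RRM2 over RRM1 was 1.27, 1.22 and 1.07 in SW480 and 0.613, 0.691 and 0.553 in SW620. MCM7 over MCM3 was 2.23, 2.17 and 2.25 in SW480 and 1.08, 1.01 and 1.13 in SW620. Replicate 2 lay close to the other libraries in both ratios. CDC6 over CDT1 went from 1.13, 1.05 and 0.932 to 0.585, 0.574 and 0.373, and RFC3 over RFC5 from 1.61, 1.39 and 1.51 to 0.772, 0.604 and 0.720. RFC3 over RFC4 also did not overlap, at 1.65, 1.31 and 1.48 against 1.13, 0.653 and 0.995. RFC3 over RFC2 overlapped, at 0.769, 0.644 and 0.613 in SW480 and 0.671, 0.385 and 0.423 in SW620. PRIM1 over PRIM2 was the ratio that was higher in SW620, at 2.80, 2.65 and 2.76 in SW480 and 4.22, 3.48 and 3.79 in SW620. CDT1 over GMNN, loader over its inhibitor, overlapped at 1.80, 1.89 and 1.89 against 1.65, 1.75 and 1.91. LIG1 over FEN1 was highest in replicate 2 of both lines (0.506 and 0.396, against 0.153 to 0.276 in the other 4 libraries), and so overlapped.

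**Figure D4:**
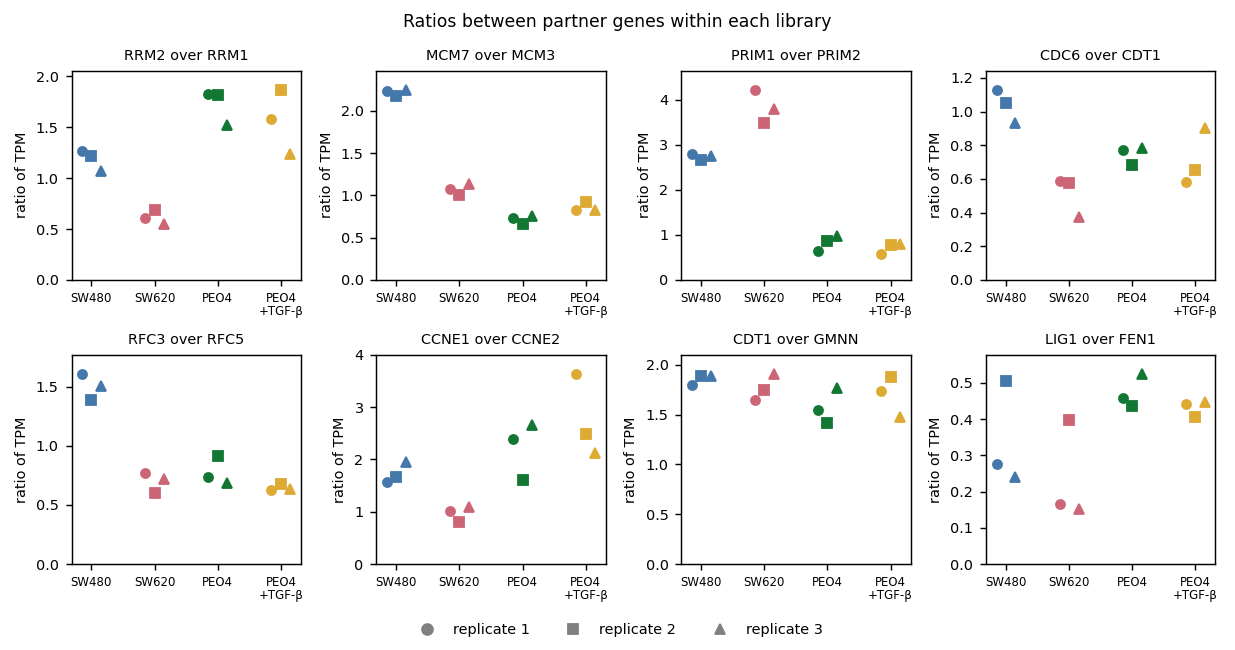
Ratio of the TPM of 8 pairs of partner genes in each library of the 4 groups, with marker shapes for the replicate numbers. RRM2 over RRM1, MCM7 over MCM3, CDC6 over CDT1, RFC3 over RFC5 and CCNE1 over CCNE2 are lower in every SW620 library than in any SW480 library, PRIM1 over PRIM2 is higher, and CDT1 over GMNN and LIG1 over FEN1 overlap.

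Related genes outside the 44 were taken from 6 lists of 93 genes, chosen with earlier results of these data known. In SW620, 7 of the 93 were higher and 25 lower, where 13.5% of all tested genes were higher and 17.0% lower. Of 14 other origin and firing factors 5 were lower, among them both activators of the CDC7 kinase, DBF4B (-1.30) and DBF4 (-1.14), with DONSON (-1.10), ORC5 (-0.79) and TOPBP1 (-0.46) on the log2 scale. Of 18 other replisome and fork factors only DNA2, a nuclease for long flaps, passed, and it was higher (1.16). Of 9 chromatin assembly genes CHAF1B was lower (-0.94). Among 10 other nucleotide enzymes CTPS1 was higher (0.69), and RRM2B (-1.15), SHMT1 (-0.92) and UMPS (-0.62) were lower.

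Several regulators of entry into S phase had larger fold changes than any of the 44. Of 30 G1/S regulators 5 were higher and 10 lower, beside 13.5% and 17.0% of all tested genes. The D-type cyclins CCND1 and CCND2 were lower by log2 fold changes of -3.07 and -4.70, and the retinoblastoma gene RB1 by -1.88. CCND1, which had 3630 ± 1010 CPM in SW480, had 433 ± 92.0 in SW620 (SD, n = 3). CDKN1A, which encodes the CDK inhibitor p21, was lower by -4.07, and CDK6 (1.43) and E2F4 (1.56) were higher. CCNA2, the cyclin of S and G2 phase, was lower by -1.48. CDK2, CDK4 and CDKN1B did not pass. Of 12 G2 and mitosis markers 6 were lower, where 17.0% of all tested genes were. They were AURKA (-1.39), FOXM1 (-1.06), BUB1 (-1.03), UBE2C (-0.99), CCNB2 (-0.79) and MKI67 (-0.69). The median of the 12 was -0.79, beside -0.12 for the 44 replication genes. No test was made of that difference.

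The sums in this paragraph use CPM by library totals alone, without the TMM factors of the CPM values above. Summed over the 44 genes, this CPM was 4330, 3140 and 3870 in SW480 and 3550, 3210 and 3480 in SW620. These sums overlap, since on this scale replicate 2 of SW480 lies below all 3 SW620 libraries. Sums with TMM factors were not taken, and the order of libraries can differ there. The sums of the 12 G2 and mitosis markers did not overlap, at 2530, 1970 and 2230 in SW480 and 1510, 1250 and 1390 in SW620. In PEO4 the replication sum was 1380, 1360 and 1450 in control cells and 1390, 1450 and 1480 with TGF-β, and these overlap.

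**Figure D5:**
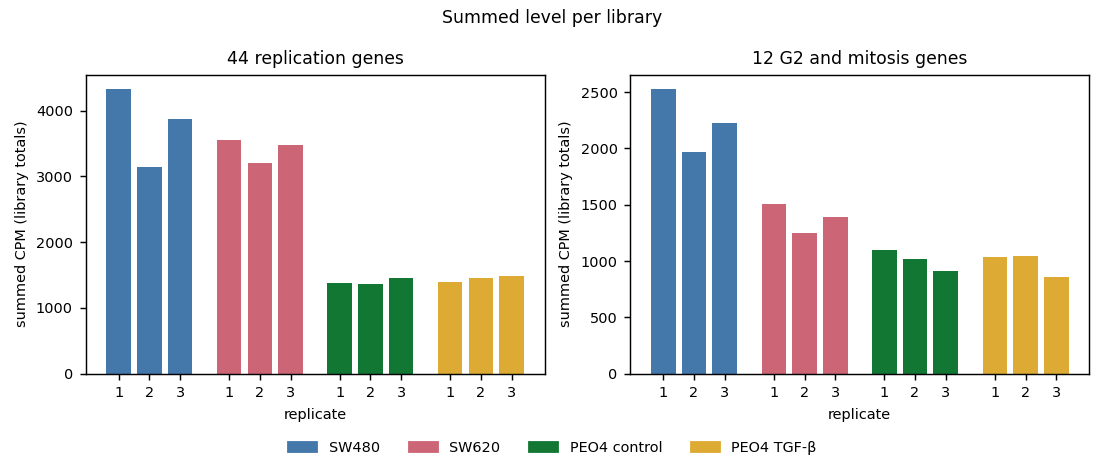
Summed CPM (by library totals, without TMM factors) of the 44 replication genes and of the 12 G2 and mitosis markers in each of the 12 libraries. The replication sum overlaps between SW480 and SW620, the mitotic sum does not, and every SW library lies above every PEO4 library for the replication sum.

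In PEO4, none of the 44 genes passed the test for a change with TGF-β. edgeR's quasi-likelihood test called 0 higher and 0 lower, and DESeq2 called 0 as well. Among all 19064 tested genes 1.27% were called higher and 0.991% lower, so a count of 0 among 44 is near the background. At an unadjusted p under 0.05 in edgeR's test there were 4 genes, against 16.7% of all tested genes. All 4 were higher with TGF-β: MCM5, MCM7, E2F1 and CDT1. The log2 fold changes of the 44 ran from -0.26 to 0.30, with a median of 0.07 beside -0.02 over all tested genes, and 30 were positive.

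MCM5 was at 32.8, 31.5 and 30.3 CPM in control cells and 39.9, 38.9 and 37.7 with TGF-β, at a log2 fold change of 0.30 ± 0.08 (SE, edgeR adjusted p = 0.106). MCM7 was at 90.2, 76.8 and 92.4 CPM and then 99.7, 115 and 105, at 0.30 ± 0.10 (edgeR adjusted p = 0.158). E2F1 was at 19.0 to 21.9 CPM in the control libraries and 23.6 to 26.3 in the treated ones, at 0.29 ± 0.10 (edgeR adjusted p = 0.186). These 3, with MCM10 and RFC4, had treated libraries above all control libraries, a pattern that 11.1% of all tested genes showed, and none of the 44 had all treated libraries below, against 10.3%. CDT1, at 18.9, 20.2 and 20.3 CPM and then 26.7, 25.6 and 20.2, overlapped (0.29 ± 0.12, edgeR adjusted p = 0.278).

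The 95% interval of each gene gave a range for its change in PEO4 at 6 days, without adjustment for the number of genes. The 95% intervals of all 44 genes lay within a 2-fold change in either direction, and those of 38 within 1.5-fold. The lowest bound was -0.88 for GINS2 and the highest 0.65 for CDC45 on the log2 scale. GINS2 had low counts, 49 to 79 per control library, and CDC45 had 155 to 264. CDC6, RRM2, CCNE1, RFC3 and LIG1, which were lower in SW620, had log2 fold changes of 0.19, -0.06, 0.15, -0.17 and -0.06 with TGF-β. CDKN1A rose with TGF-β, from 27.2 ± 2.67 CPM to 54.2 ± 1.91 (SD, n = 3), at a log2 fold change of 0.99 ± 0.09 (SE, edgeR adjusted p = 0.002). It was the 1 of the 93 related genes called, where 1.27% of all tested genes were higher. CDK6 had a value of -0.31 ± 0.10 (edgeR adjusted p = 0.165) and MKI67 one of -0.23 ± 0.13 (edgeR adjusted p = 0.424). In the authors' deposited table no replication gene passed, where 3.21% of genes with an adjusted p were higher and 2.45% lower, and the smallest adjusted p of the 44 was 0.104.

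Levels per length separated the SW lines from PEO4. In TPM, 38 of the 44 genes were higher in all 6 SW libraries than in all 6 PEO4 libraries, where 25.1% of 23309 genes were so ordered. Only TK1 had every PEO4 library above every SW library, where 15.0% of genes did, and GINS4, PRIM2, POLD3, LIG1 and CCNE1 overlapped. The median SW to PEO4 ratio of the group's TPM was 2.58, beside 1.37 over all genes. Of the related lists, the G1/S regulators had a median ratio of 2.08 with 18 of 30 above, the other replisome and fork factors 1.77 with 9 of 18, the chromatin assembly genes 1.75 with 5 of 9, the other nucleotide enzymes 1.71 with 4 of 10, the other origin and firing factors 1.44 with 5 of 14, and the G2 and mitosis markers 1.23 with 2 of 12. Tissue, line and medium cannot be told apart here, and no test was made.

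PCNA had the widest gap, at a ratio of 8.07. Its TPM was 389, 171 and 316 in SW480, 463, 247 and 459 in SW620, 40.2, 33.6 and 47.1 in PEO4 control and 40.1, 47.1 and 49.7 with TGF-β. GINS2, DTL and POLA1 followed at ratios of 6.17, 5.09 and 4.99. TK1, the salvage kinase for thymidine, went the other way, with TPM of 143, 118 and 116 in PEO4 control, 141, 143 and 126 with TGF-β, 112, 58.7 and 103 in SW480 and 78.0, 38.9 and 78.0 in SW620. It was the highest of the 44 genes in PEO4.

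Within each group the levels spanned a wide range. MCM7 led in SW480 at 326 ± 80.5 TPM, with PCNA next at 292 ± 111 (SD, n = 3), and these spreads overlapped. Within each SW480 library MCM7 was above PCNA, at 399, 240 and 338 against 389, 171 and 316 TPM. Their order was not tested. In SW620 PCNA led at 390 ± 124 TPM and MCM7 followed at 215 ± 34.7. CCNE2 was lowest in SW480 at 7.21, 4.92 and 4.23 TPM, in PEO4 control at 1.80, 2.40 and 2.28, and with TGF-β at 1.55, 2.25 and 2.09. In SW620 CCNE1 was lowest, at 4.92, 4.16 and 4.05 TPM, beside CCNE2 at 4.82, 5.14 and 3.73, and these overlap. In TPM, MCM5 was the lowest of the 6 MCM ring subunits in every group, and the highest exceeded it by 6.37-fold in SW480, 4.47-fold in SW620, 6.37-fold in PEO4 control and 5.38-fold with TGF-β. MCM7 was the highest in the SW lines and MCM3 in PEO4. The order of MCM5 depends on the divisor, since its merged exons are the longest of the 6 (7338 bases, beside 4118 for MCM6), and in CPM, without division by length, MCM6 was below it in SW480 (123 against 138) and SW620 (112 against 128).

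Some counts are uncertain because exons overlap those of other genes, and strand use in counting is not given in the sources used here. ENOSF1 covers 39.15% of the exon bases of TYMS and INTS8 37.05% of those of CCNE2, both on the opposite strand. AP000944.2 covers 35.14% of POLA2, and AC117378.1 covers 14.85% of PRIM1, both on the same strand. Antisense genes cover 22.71% of MCM2, 21.17% of GINS4 and 10.93% of GINS3. Annotated pseudogene copies held at most 2.88% of the count of their parent gene.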

How the data were processed

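Whole-number counts per gene of 12 libraries were deposited by the authors. The reads were processed with Trimmomatic 0.36, STAR 2.5.2b and featureCounts of Subread 1.5.2 on GRCh38, and tested with DESeq2, per the submitters' processing notes. The authors' deposited tables also give a log2 fold change and an adjusted p-value per gene, and they were used only beside the calls made here. Of 57500 gene IDs 56898 were found in GENCODE 29, the source of exon lengths and overlaps; the annotation behind the counts is not given in the sources used here.

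The 6 libraries of a comparison were tested together, apart from the other 6, in edgeR 4.0.16 under R 4.3.3 (filterByExpr, TMM factors, glmQLFit and glmQLFTest, two-sided, Benjamini-Hochberg adjustment over all tested genes, threshold 0.05), and the script was tested on simulated data. Common biological variation (edgeR's BCV) came to 0.274 in the SW fit and 0.152 in the PEO4 fit. An exact two-sided permutation test of 3 against 3 libraries cannot go under 0.1, and p-values here come from the model across genes. TPM used merged exon lengths and all genes with one. Alternatives were DESeq2 1.42.0, other scalings and filters, a GC correction, all libraries in 1 model, a replicate block and leaving out libraries. Library totals were 14531420 to 22028956 counts. The standard errors and intervals beside the results were derived here from the edgeR fits. A standard error is the size of the log2 fold change over the square root of the test's F statistic. Its product with a t quantile gave the interval.

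The 44 genes and the related lists were chosen with earlier results of these data known. All 44 are named. Values per library are given for those past the threshold and the highest and lowest in TPM, and for others chosen after their values were seen. Related genes are named where they passed, at most 6 per list by size, and CDKN1A, CDKN1B, CDK2, CDK4, CDK6, CCND1, RB1 and MKI67 whatever their result.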

Additional observations from a re-analysis of the deposited data

How the results depend on the processing

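In SW620, 0 genes were higher and 6 lower. For the alternatives below, the share of all tested genes that passed is not given beside the counts. The counts (higher, lower) became 3 and 8 with total-count scaling, 2 and 8 with at least 10 counts in every library, and 3 and 11 with all 12 libraries in one model. Leaving out single libraries gave 0 to 4 higher and 2 to 10 lower, and leaving out number 2 of both SW lines gave 1 and 12. DESeq2 gave 0 and 7. In PEO4 every alternative but the block gave 0 in both directions. LIG1 had an edgeR adjusted p of 0.052 with total-count scaling.

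The replicate numbers were not taken to pair the samples, since not every pair of same-numbered libraries correlated at over 0.1 over all genes: deviations of same-numbered libraries correlated at 0.016, 0.67 and 0.567 in the SW lines and 0.291, -0.14 and 0.481 in PEO4 there, and SW480 replicate 1 correlated best with SW620 replicate 3 (0.267). Over the 44 genes alone the SW values were 0.699, 0.905 and 0.888, and each SW library correlated best with its own number, a hint from the data and not from the labels. In PEO4 they were 0.37, -0.116 and 0.274. With the replicate block, 9 were higher and 15 lower in SW620, the original 6 among them, and the same counts of 9 and 15 came with the block and GC correction. In PEO4 the block gave 1 higher (MCM5, edgeR adjusted p = 0.0282), and 0 with the GC correction.

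A change of sign occurred for 13 genes in the SW lines and 14 in PEO4, and none passed after the change. In the fit of all 6 libraries without a block, from which the results above come, their log2 fold changes were at most 0.17 and 0.14 in size. Leaving out single libraries moved the SW log2 fold change of MCM5 from -0.26 to 0.02, MCM6 from -0.40 to 0.13, CDT1 from -0.27 to 0.17, GMNN from -0.14 to 0.22, CDC45 from -0.17 to 0.08, PRIM2 from -0.10 to 0.18, POLD2 from -0.22 to 0.25, RFC5 from -0.09 to 0.23, RPA1 from -0.35 to 0.09, RPA2 from -0.33 to 0.11, FEN1 from -0.36 to 0.18, RRM1 from -0.33 to 0.15 and DTL from -0.03 to 0.39. In PEO4 it moved MCM6 from -0.14 to 0.05, ORC1 from -0.02 to 0.16, ORC6 from 0.00 to 0.12, GINS1 from -0.03 to 0.04, PRIM1 from -0.09 to 0.01, PRIM2 from -0.04 to 0.35, POLD1 from -0.02 to 0.14, POLD3 from 0.00 to 0.05, POLE from -0.04 to 0.06, POLE2 from -0.36 to 0.01, RPA2 from -0.20 to 0.05, RPA3 from -0.23 to 0.05, RRM2 from -0.18 to 0.09 and DTL from -0.03 to 0.16. In the SW lines CDT1 was 0.01 with total-count scaling, 0.10 with GC correction and 0.11 with the block and GC correction. CDC45 was 0.03 with total-count scaling and 0.00 with at least 10 counts, and PRIM2 -0.01 without number 2 of both lines. In PEO4 GINS1 was 0.01 with no count filter, 0.02 with all 12 libraries, and 0.03 with GC correction and with the block and GC correction. PRIM1 was 0.00, POLD1 -0.01 and POLE -0.03 with GC correction, alone and with the block, and POLE 0.00 with total-count scaling. The cause was not tested.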
